A study of Mus musculus with 10 samples.

Results

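The 7 regulatory T cell genes Foxp3, Ctla4, Il2ra, Ikzf2, Ikzf4, Izumo1r and Lrrc32 were followed through 8 peak lists of histone H3 dimethylated at lysine 4 (H3K4me2), a chromatin mark of promoters and enhancers. A peak was taken as theirs when the nearest protein-coding gene, by the RefSeq table of the mm10 mouse genome, was one of them and lay within 100 kb. This rule used position only, and it gave 164 of the 152121 peaks of all lists. Where peaks of different lists lay within 500 bp they were merged, which gave 30 regions for these genes among 30062 regions in all. All 7 genes had at least 1 peak in some list.

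Regulatory T cells are CD4+ T cells that restrain other lymphocytes. Foxp3 is the transcription factor that defines them. Il2ra encodes CD25, the high-affinity chain of the interleukin 2 receptor, whose signal through STAT5 sustains Foxp3. Ctla4 encodes an inhibitory receptor that competes with CD28 for its ligands. Ikzf2 (Helios) and Ikzf4 (Eos) encode zinc finger factors of the Ikaros family, Lrrc32 encodes GARP, which holds latent TGF-beta on the cell surface, and Izumo1r encodes folate receptor 4. Several of these genes are also used by other activated lymphocytes, so the name describes what the genes are known for and not which cells were sampled.

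All cells came from mice that carried the Gata3-YFP/YFP reporter and had airway inflammation. The Gata3 locus of this line reports through yellow fluorescent protein, so the reporter and the inflammation were shared by every group. Cells labelled naive T, T helper 2 (Th2) and ILC2s (innate lymphoid cells of group 2) were sequenced in 2 libraries per type, 1 of bronchoalveolar lavage and 1 of mediastinal lymph node. CD4+ lymphocytes from spleen and from thymus had 1 library each, and no group was sorted as regulatory T cells. The sort gates are not given in the sources used here, nor whether the libraries came from separate animals, so a p-value measures a difference only against the spread between these samples, which may be technical, and the site is part of that spread. The labels name 2 immunoglobulin G (IgG) libraries as background but list the H3K4me2 antibody for them. A value is the sum of the normalized tags of a gene's peaks, per 10000000 tags sequenced. The lavage library is always given first.

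The libraries held between 11870820 and 24945548 tags, and between 28.7% and 53.7% of them lay in peaks. A peak had to reach about 40 tags on the normalized scale, so a gene without a peak fell below that level or failed another criterion, and is not shown to lack the mark. In these bulk samples, fewer cells that carry the mark and less of the mark per cell cannot be told apart. The lavage library labelled naive T stood apart from that of the lymph node: their gene levels correlated across 12241 genes with r = 0.762, against 0.915 for the Th2 pair and 0.915 for the ILC2 pair. It had peaks at all 6 Th2 markers, summing to 3133.8 tags, against 3 in the lymph node, summing to 2530.2, where Il4, Il13 and Il1rl1 had none. T cell markers summed to between 7494.8 and 11694.8 tags in the 6 T cell libraries and to 574.4 and 631.6 in ILC2s, where Cd4 and Themis had no peak. Cd3g, of the same list, went the other way, with 65.7 and 66.6 tags in ILC2s and no peak assigned in the T cell libraries. ILC2 markers summed to 19656.0 and 21052.2 tags in ILC2s and to between 2157.8 and 5808.0 elsewhere, with no peak at Il17rb in any library. The 4 regulatory T cell markers (Foxp3, Il2ra, Ctla4 and Ikzf2) are themselves among the 7 genes, and all had a peak in the naive T and spleen libraries, and all but Foxp3 in the others. Of 6 B cell markers, between 0 and 3 had a peak, with sums up to 557.4 tags, and of 6 myeloid markers 2 or 3, with sums up to 704.5. The part of these differences in the results below was not tested.

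Promoter sequence is shown for 3 genes whose start sites set the results apart: Foxp3, where no list had a peak over either annotated start, Izumo1r, where every list but those of ILC2s did, and Ctla4, where all 8 did under peaks of very unequal length. Each line is the 250 bases before a start site, 5′ to 3′ on the gene's strand, from RefSeq on GRCm38.p6, and capitals mark motif matches. The first Foxp3 line is chrX:7579426-7579675 (plus strand), the second is chrX:7580233-7580482 (plus strand), Izumo1r is chr9:14903768-14904017 (minus strand) and Ctla4 is chr1:60908775-60909024 (plus strand).
Foxp3, first start: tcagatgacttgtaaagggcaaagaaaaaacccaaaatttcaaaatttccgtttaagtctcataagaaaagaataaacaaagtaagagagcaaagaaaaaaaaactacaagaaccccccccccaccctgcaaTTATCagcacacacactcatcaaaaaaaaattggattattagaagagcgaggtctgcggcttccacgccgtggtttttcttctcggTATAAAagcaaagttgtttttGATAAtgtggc
Foxp3, second start: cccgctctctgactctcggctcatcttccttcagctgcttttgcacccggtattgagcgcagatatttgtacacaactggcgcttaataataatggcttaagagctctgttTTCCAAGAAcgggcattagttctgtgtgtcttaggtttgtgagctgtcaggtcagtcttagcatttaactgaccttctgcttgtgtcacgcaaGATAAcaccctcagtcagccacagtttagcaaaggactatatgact
Izumo1r: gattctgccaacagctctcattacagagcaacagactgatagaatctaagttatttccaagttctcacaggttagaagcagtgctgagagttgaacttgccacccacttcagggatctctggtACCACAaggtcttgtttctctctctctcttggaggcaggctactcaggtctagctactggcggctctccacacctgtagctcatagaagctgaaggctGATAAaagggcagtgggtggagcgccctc
Ctla4: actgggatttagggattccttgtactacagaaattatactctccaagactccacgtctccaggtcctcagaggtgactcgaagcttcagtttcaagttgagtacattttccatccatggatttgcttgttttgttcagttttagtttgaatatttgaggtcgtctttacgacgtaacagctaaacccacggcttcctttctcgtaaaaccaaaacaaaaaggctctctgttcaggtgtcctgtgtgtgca

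The motifs searched on both strands were a TATA box (TATAAA, in 12.4% of all 32851 promoters of this length), GATA (GATAA, 22.6%), STAT (TTCNNNGAA, 7.02%), RUNX (TGTGGT, 14.0%), AP-1 (TGANTCA, 6.75%) and forkhead (TGTTTAC, 3.17%). Counting the start site as 0, the first Foxp3 promoter held a TATA box at -32 to -27 and GATA letters at -118 to -114 and -11 to -7. The second held STAT letters at -139 to -131 and GATA letters at -46 to -42. The Izumo1r promoter held RUNX letters at -127 to -122 and GATA letters at -29 to -25. The Ctla4 and Il2ra promoters matched none of the 6. G and C made up 37.6% and 46.0% of the Foxp3 windows, 50% for Izumo1r, 42.4% for Ctla4 and 42.4% for Il2ra, against a median of 52.4% over all promoters. Ikzf2, Ikzf4 and Lrrc32 had no entry in the promoter table. A match is a description of the letters and not a binding site.

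Foxp3 (chrX:7579676-7595243) carried a called peak in both naive T libraries and in spleen CD4+ cells, and in no Th2, ILC2 or thymus list. Its level was 203.5 and 144.6 tags in the naive T libraries and 102.1 tags in spleen. The 2 naive T libraries were thus above all Th2 and ILC2 libraries, whose lists had none. The peaks lay inside the gene but at different places. The lavage naive T peak covered chrX:7581048-7585732, from 1372 to 6056 bp past the first start. The lymph node naive T peak covered chrX:7585592-7588160, from 5916 to 8484 bp, and the spleen peak chrX:7585651-7587949, from 5975 to 8273 bp. The lymph node and spleen peaks shared most of their length (Jaccard index, shared over joint length, 0.895), and the 2 naive T peaks shared 140 of 7112 bp (0.02). The authors' fold over IgG was 24.3 for the lavage peak, 37.4 for the lymph node peak and 15.7 for the spleen peak.

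No list covered either Foxp3 start, whose sequences are printed above. The lavage naive T peak began 565 bp past the second start. In the other lists the peak nearest to the first start lay between 3856 and 4414 bp away and was assigned to the neighbouring gene Ppp1r3f. Chromatin beside Foxp3 was thus called in cell types that had no peak inside the gene.

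**Figure D1:**
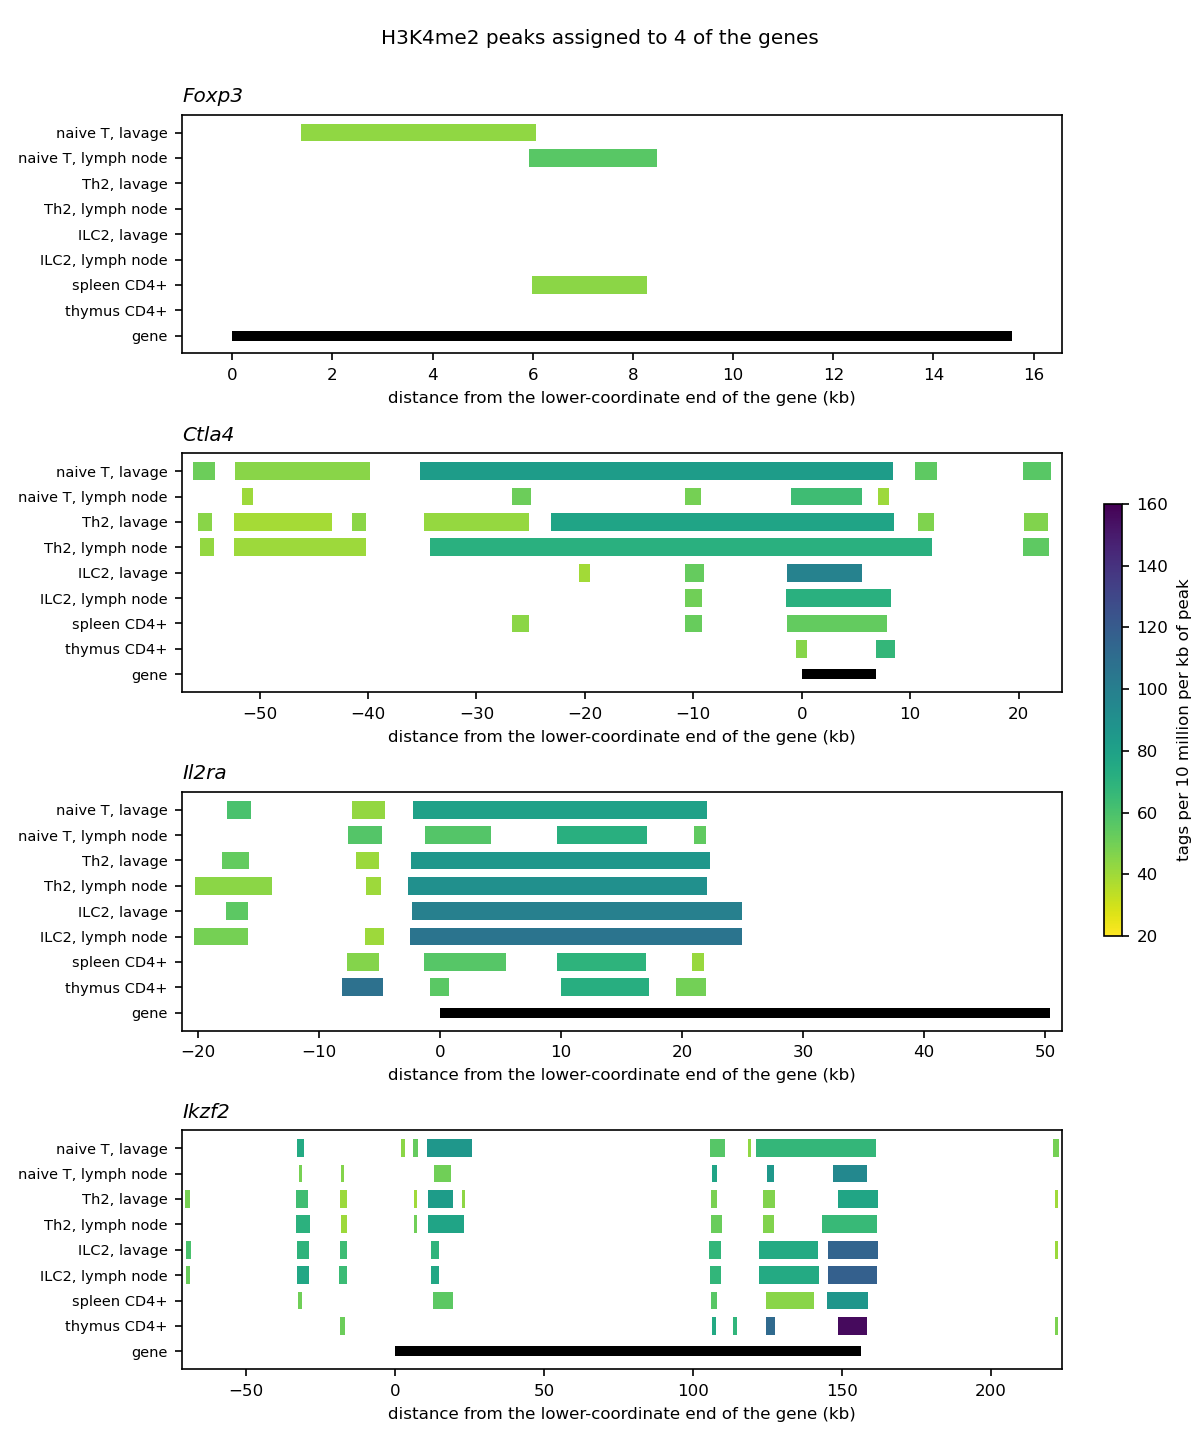
Peaks assigned to Foxp3, Ctla4, Il2ra and Ikzf2 in each of the 8 libraries (rows), drawn at their distance in kb from the lower-coordinate end of the gene (black bar), and coloured by normalized tags per kb of peak. The 2 naive T peaks of Foxp3 meet over 140 bp, and the long Ctla4 domain is present in the lavage naive T and both Th2 libraries and not in the others.

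Il2ra (chr2:11642792-11693194) was marked in all 8 libraries and its start was covered in all of them. The level was 2197.6 and 1072.9 tags in the naive T libraries, 2323.3 and 2560.9 in Th2 cells, 2809.3 and 3195.7 in ILC2s, 1058.6 in spleen and 1109.4 in thymus. ILC2s had the highest mean (3000.0 ± 273 SD, n = 2), then Th2 cells (2440.0 ± 168, n = 2) and naive T cells (1640.0 ± 795, n = 2). The 2 ILC2 libraries were above all others and both Th2 libraries were above both naive T libraries. This order of ILC2s and Th2 cells holds for uncentred tags only: centred on each library's median, the log2 difference was -0.15. Spleen and thymus, with no replicate, were close to the lymph node naive T library. Called length was 29.1 and 16.8 kb in the naive T libraries, 28.8 and 32.4 kb in Th2 cells and 29.0 and 33.4 kb in ILC2s, so the 3 lavage libraries had nearly equal lengths. Per kb of peak the level was 75.5 and 63.7 tags in the naive T libraries, 80.7 and 79.1 in Th2 cells, 96.7 and 95.6 in ILC2s, 59.6 in spleen and 75.0 in thymus.

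The form of the Il2ra peak over the start differed more than its sum. A single peak of 24.4 kb covered the start and the first part of the gene in lavage naive T cells, of 24.7 and 24.8 kb in Th2 cells and of 27.3 and 27.4 kb in ILC2s. In lymph node naive T cells and in spleen the peak at the start was 5.5 and 6.8 kb, and in thymus 1.5 kb, with separate peaks farther into the gene. Upstream, the region chr2:11622470-11628869 was called in 5 of the 6 airway lists, at 121.6 tags in lavage naive T cells, 120.3 and 281.4 in Th2 cells and 99.0 and 219.4 in ILC2s, and was missing from the lymph node naive T, spleen and thymus lists. The region chr2:11634639-11638215, closer to the start, had its highest level in thymus (371.4 tags) and was at 115.8 and 162.9 in the naive T libraries, 75.4 and 50.5 in Th2 cells and 122.1 in spleen. In ILC2s it was called in the lymph node alone, at 62.6 tags.

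Ctla4 (chr1:60909025-60915832) had 4534.8 and 659.7 tags in the naive T libraries, 3519.6 and 3964.3 in Th2 cells, 809.4 and 763.5 in ILC2s, 642.4 in spleen and 163.9 in thymus. The lavage naive T and both Th2 libraries were high, and the lymph node naive T, ILC2 and spleen libraries were low and close to each other. Naive T cells spanned both levels, so their mean of 2600.0 ± 2740 tags (SD, n = 2) describes neither library. Th2 cells were at 3740.0 ± 314 and ILC2s at 786 ± 32.5 (SD, n = 2 each). Called length moved with the sums: 62.6 and 11.8 kb in the naive T libraries, 56.8 and 62.2 kb in Th2 cells, 9.7 and 11.2 kb in ILC2s, 12.2 kb in spleen and 2.8 kb in thymus. The level per kb of peak ranged from 52.6 to 83.7 tags and was highest in lavage ILC2s, so the libraries differed in how far the mark extended and much less in its height.

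The extended mark at Ctla4 was a domain of 43.6 kb over the start in lavage naive T cells, of 31.6 and 46.3 kb in Th2 cells. The peak over the start was 6.5 kb in lymph node naive T cells, 6.9 and 9.7 kb in ILC2s, 9.2 kb in spleen and 1.0 kb in thymus. Ranked by tags, where long peaks stand high, this peak was the 8th of 16725 in the lavage naive T list (3614.8 tags), the 20th of 14773 in lavage Th2 cells (2467.3 tags) and the 7th of 14723 in lymph node Th2 cells (3283.7 tags). Farther upstream, the regions chr1:60852889-60854906 and chr1:60856650-60869163 were called in lavage naive T cells and both Th2 libraries, and the second also, at 40.6 tags, in lymph node naive T cells. The second held 558.4 tags in lavage naive T cells and 408.3 and 493.6 in Th2 cells. Downstream, chr1:60929400-60932027 was called in the same 3 libraries, at 144.2, 104.1 and 131.4 tags. None of these 3 regions was called in ILC2s, spleen or thymus. The lavage naive T peaks shared far more of their length with those of Th2 cells (Jaccard index 0.899 and 0.926) than with those of lymph node naive T cells (0.189).

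Ikzf2 (chr1:69531207-69687351) had the most regions of the 7 genes, 11 of the 30. Its level was 4782.5 and 1789.2 tags in the naive T libraries, 2589.6 and 2948.3 in Th2 cells, 4440.9 and 4492.1 in ILC2s, 2491.2 in spleen and 2247.7 in thymus. The lavage naive T library was the highest and the lymph node naive T library the lowest of the 8, with the 2 ILC2 libraries next to the highest. Its peaks covered 69.3 and 23.0 kb in the naive T libraries, 39.0 and 44.9 kb in Th2 cells, 52.2 and 51.5 kb in ILC2s, 40.5 kb in spleen and 18.6 kb in thymus. Thymus had the densest mark, at 120.7 tags per kb of peak, against 61.5 in spleen.

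Regions of Ikzf2 differed in where ILC2s stood beside the airway T cells. The longest, chr1:69652234-69693332, which spans the upper end of the gene, reached 3404.6 and 3464.7 tags in ILC2s, 1225.6 and 1361.3 in Th2 cells, 2721.6 and 1291.1 in the naive T libraries, 1925.7 in spleen and 1900.5 in thymus. Both ILC2 libraries were above all others there. The region chr1:69541996-69556789, near the lower end and inside the gene, placed ILC2s differently, with 180.4 and 194.0 tags in ILC2s, 748.0 and 957.8 in Th2 cells, 1268.5 and 285.6 in the naive T libraries, 358.5 in spleen and no peak in thymus. Both ILC2 libraries were below all 4 airway T cell libraries. Next to it, chr1:69537008-69538887 was called in lavage naive T cells and both Th2 libraries only. Below the gene, chr1:69460669-69462543 was called in both ILC2 libraries (106.2 and 78.8 tags) and in lavage Th2 cells (74.2 tags), and in no other list. Of the remaining 7 regions, 3 were called in 1 list each.

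Izumo1r (chr9:14885814-14903951) had no peak in either ILC2 library. Its level was 1125.0 and 1013.6 tags in the naive T libraries, 403.9 and 458.3 in Th2 cells, 924.8 in spleen and 116.6 in thymus. The naive T and spleen libraries were high, Th2 cells lay between, and thymus was low, with no overlap between naive T, Th2 and ILC2 libraries. Most of it came from 1 region over the start, chr9:14897844-14908675, with 887.7 and 895.8 tags in the naive T libraries, 365.3 and 404.4 in Th2 cells, 878.7 in spleen and 74.1 in thymus. The peak over the start was 10.4 and 10.7 kb long in the naive T libraries, 6.8 and 6.8 kb in Th2 cells, 10.7 kb in spleen and 1.8 kb in thymus. In the ILC2 lists the nearest peak to the start lay 113723 and 113571 bp away. Upstream, chr9:14925659-14927459 was called in the same 6 lists as the start, at 38.6 to 91.9 tags, and chr9:14920267-14922297 in the 2 naive T lists only, at 84.0 and 40.2 tags.

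Lrrc32 (chr7:98489305-98501831) was weakly marked. Its level was 127.5 and 306.0 tags in the naive T libraries, 351.0 in spleen and 341.5 in thymus, with no peak in either Th2 library and 46.9 tags in lavage ILC2s alone. The region over the lower end of the gene, chr7:98487857-98493646, carried most of it. A region beyond the gene, chr7:98533740-98535308, was called in lymph node naive T cells (68.7 tags), spleen (67.6) and thymus (51.5).

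Ikzf4 (chr10:128630839-128669671) differed least among the 7 genes. Its level was 318.9 and 447.7 tags in the naive T libraries, 253.7 and 367.4 in Th2 cells, 334.3 and 260.2 in ILC2s, 436.8 in spleen and 421.8 in thymus, and the 3 airway groups overlapped. The region chr10:128662555-128665344 stood apart from that, with 122.2 and 126.4 tags in Th2 cells, 108.2 in lavage ILC2s and no peak elsewhere. Another region, chr10:128668484-128675796, was called in all 8 lists and joins peaks nearest to Ikzf4 with peaks nearest to the neighbouring gene Suox. Both Th2 libraries and lavage ILC2s had a single peak there (364.0, 363.9 and 392.9 tags), which did not count for Ikzf4. In the other lists a separate peak of 40.6 to 73.5 tags did count, so the Ikzf4 levels and their comparisons hold this difference in assignment.

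**Figure D2:**
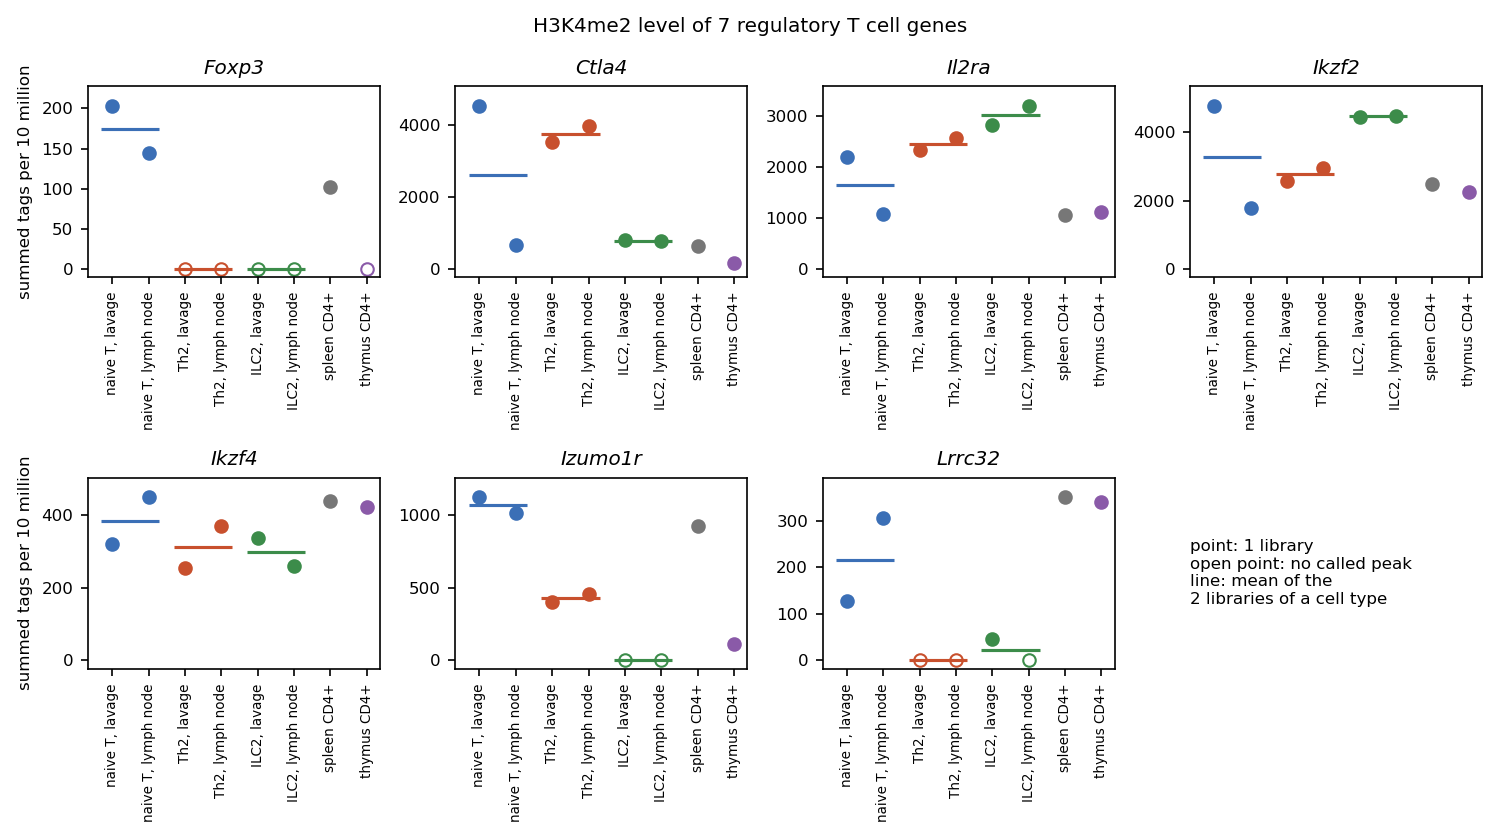
Summed normalized tags per 10000000 (vertical axis, a linear scale from 0 that differs between panels) of the 7 genes in the 8 libraries, with 1 point per library, open where no peak was called, and a line at the mean of the 2 libraries of an airway cell type. Izumo1r separates the 3 airway cell types, and Ctla4 and Ikzf2 show the 2 naive T libraries far apart.

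The 3 airway cell types were compared gene by gene with limma on log2(summed tags + 40), centred on each library's median, over 12241 genes with a peak in at least 2 of the 6 libraries. All 7 genes entered, but Foxp3, Izumo1r and Lrrc32 entered through the groups in which they had peaks, so their count says little. Against naive T cells, ILC2s were lower at 2 of the 7 genes, Foxp3 and Izumo1r (2.39% of all genes tested were lower), and higher at 0 (7.46%). Against Th2 cells, ILC2s were lower at Izumo1r alone (1.72%) and higher at 0 (7.39%). Between Th2 and naive T cells, limma called 0 of the 7 genes in either direction, beside 0.645% of all genes higher and 1.48% lower. An unadjusted limma p under 0.05 was reached there by 3 of the 7, beside 2253 of all 12241 genes. In the comparisons of ILC2s, 3 of the 7 genes had such a p against naive T cells, beside 2772 of all genes. Against Th2 cells 1 had such a p, beside 3305.

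Izumo1r entered the fit through its naive T and Th2 peaks, and both its ILC2 values stand at the floor. Those values differ by the centring only, and they enter the shared estimate of the spread. Its tests against ILC2s thus add little to the absence of ILC2 peaks. The adjusted p by limma was 0.0024 against naive T cells and 0.0042 against Th2 cells. No fold is given, since it would rest on the added 40 tags. Without the lymph node ILC2 library the adjusted p was 0.053 and 0.069, and against Th2 cells it was 0.061 without the lavage ILC2 or the lymph node Th2 library. Th2 cells were lower than naive T cells at Izumo1r by 0.67 on the log2(tags + 40) scale (SE 0.23, limma adjusted p = 0.26), in 2 of 2 libraries but short of the threshold. Foxp3 entered the fit through its 2 naive T peaks alone, and all its Th2 and ILC2 values stand at the floor, so its test adds little to the presence of those peaks. The adjusted p by limma was 0.019 for ILC2s and 0.073 for Th2 cells against naive T cells, and 0.023 and 0.086 with no filter on genes. Centring shifted that shared floor by library, to log2 means of 5.22 in ILC2s and 5.66 in Th2 cells. Without centring both comparisons passed (limma adjusted p = 0.0053 and 0.016), so the call for ILC2s alone does not set them apart from Th2 cells. The call was lost when either ILC2 library (adjusted p = 0.2 and 0.22) or either Th2 library (0.07 and 0.069) was left out, and with the 4 libraries of ILC2s and naive T cells alone (0.07). Lrrc32 did not pass, with adjusted p = 0.076 for ILC2s and 0.13 for Th2 cells against naive T cells. It passed when every list was held to the same number of peaks (0.0028 and 0.013). That setting dropped its lone ILC2 peak, of 46.9 tags, and its smaller lymph node naive T peak, of 68.7 tags. All its ILC2 and Th2 values then stood at the floor, so the pass adds little.

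Ctla4, Il2ra and Ikzf2 did not pass in any of the 3 comparisons with all 6 libraries. Ctla4 differed by -2.64 between ILC2s and Th2 cells on the log2 scale (SE 1.05, limma adjusted p = 0.2), and the SE there holds the distance between the 2 naive T libraries, since the cell types share 1 estimate of the spread. With the 4 ILC2 and Th2 libraries alone, a fit added after the data were seen, the difference was -2.64 with limma adjusted p = 0.0017. That fit called 3420 of 11722 genes, against 1116 of 12241 with all 6 libraries. Il2ra was 1.07 higher in ILC2s (SE 0.5, adjusted p = 0.32) and 1.22 higher in Th2 cells (SE 0.5, adjusted p = 0.3) than in the naive T libraries. Ikzf2 was 0.72 higher in ILC2s than in the naive T libraries (SE 0.63, adjusted p = 0.57).

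The differences from naive T cells turned on which naive T library was kept. Without the lavage naive T library, that of the lymph node stood alone for its group and was assumed to vary like the others. Ctla4 was then 3.23 higher in Th2 cells than in the naive T libraries (limma adjusted p = 0.0041) and 0.60 higher in ILC2s (adjusted p = 0.058), where it had been 0.99 lower with both libraries (log2 difference -0.99, adjusted p = 0.65). Il2ra was 1.81 higher in ILC2s (adjusted p = 0.006) and 1.96 higher in Th2 cells (adjusted p = 0.0061). Ikzf2 was 1.66 higher in ILC2s (adjusted p = 0.0063) and 1.42 higher in Th2 cells (adjusted p = 0.0089). Izumo1r kept its calls, with adjusted p = 0.0032 against naive T cells and 0.0021 against Th2 cells, and Foxp3 left the set of genes tested. Without the lymph node naive T library instead, Ctla4 was lower in ILC2s than in the naive T libraries (log2 difference -2.58, adjusted p = 0.0038) and Ikzf2 showed -0.21 (adjusted p = 0.35). Il2ra was then 0.33 higher in ILC2s (adjusted p = 0.18) and 0.48 higher in Th2 cells (adjusted p = 0.22), and Ctla4 differed by 0.06 between Th2 and naive T cells (adjusted p = 0.83).

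Called by region, on the 11644 regions with a peak in all 6 airway libraries, limma called 0 of the 8 regions of these genes in any comparison. The share called over all regions was 4.23% for ILC2s against naive T cells, 0.137% for Th2 cells against naive T cells and 3.38% for ILC2s against Th2 cells. An unadjusted limma p under 0.05 was reached by 2, 3 and 4 of the 8, beside 2224, 2212 and 2533 of all 11644 regions. Between ILC2s and Th2 cells, the Ctla4 domain differed by -2.42 (SE 0.93, adjusted p = 0.21), the Ikzf2 region near the lower end of the gene by -2.61 (SE 0.8, adjusted p = 0.15) and the Ikzf2 region at the upper end by 0.98 (SE 0.48, adjusted p = 0.3), all on the log2 scale. Without the lavage naive T library these 3 differences were -2.42, -2.62 and 0.97.

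Presence alone was compared by counting regions called in both libraries of one cell type and in neither of the other, among 28 regions with a peak in an airway list. Naive T cells had 5 such regions against ILC2s (1 of Foxp3, 1 of Ctla4 and 3 of Izumo1r), beside 2.91% of all regions, and ILC2s had 1 against naive T cells (Ikzf2), beside 11.6%. Th2 cells had 6 against ILC2s (3 of Ctla4, 1 of Ikzf2 and 2 of Izumo1r), beside 1.51% of all regions. The reverse count was 0, beside 19.6%. The ILC2 lists are longer than the Th2 lists, and the shares over all regions follow that. Naive T cells had 3 against Th2 cells (1 each of Foxp3, Izumo1r and Lrrc32), beside 5.73%, and Th2 cells had 1 against naive T cells (Ikzf4), beside 1.1%. With 14723 peaks taken from every list, 7 regions of these genes were called in Th2 cells and not in ILC2s and 0 the other way, beside 1332 and 1559 of all regions in place of 418 and 5424. Between naive T cells and ILC2s the numbers were then 4 and 1, beside 1067 and 1523 in place of 805 and 3210. Between naive T cells and Th2 cells they were 2 and 2, beside 518 and 633 in place of 1586 and 304. Neighbouring regions of a gene are not independent, and the design with 2 against 2 libraries allows no test under 0.05.

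Across libraries, lavage naive T cells had 24 of the 30 regions called and lymph node naive T cells 18, Th2 cells 20 and 19, ILC2s 15 and 13, spleen 15 and thymus 16. The share of all regions called in each library was not counted, and the lists held between 14723 and 21985 peaks. Peaks of these genes made up 0.149% and 0.109% of the naive T lists and 0.162% and 0.129% of the Th2 lists. In the ILC2 lists they made up 0.08% and 0.07%, in spleen 0.098% and in thymus 0.097%. Regions called in all 8 lists made up 6 of the 30, against 36.7% of all 30062 regions, and those called in 1 list 5 (16.7%), against 17.1%. All of the 6 belonged to Ctla4, Il2ra, Ikzf2 and Ikzf4.

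**Figure D3:**
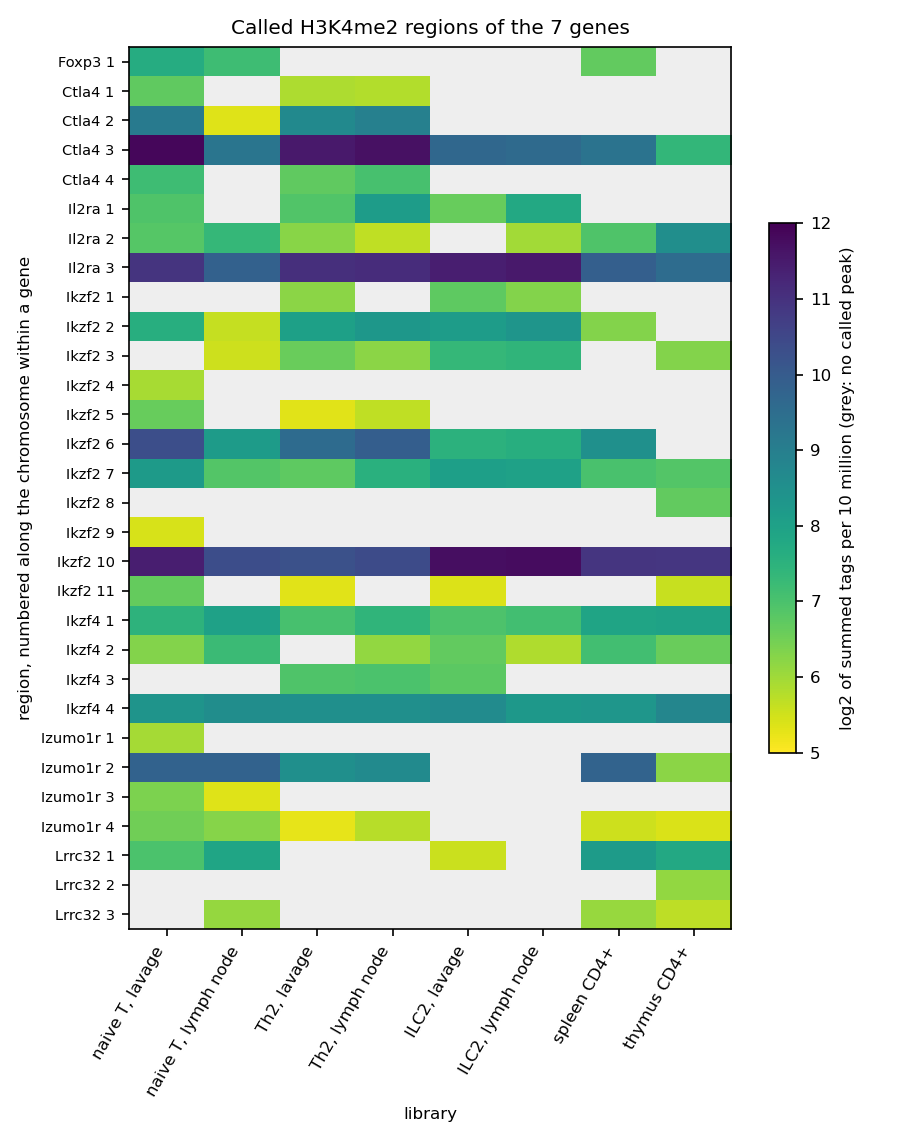
The 30 regions (rows, numbered along the chromosome within each gene) in the 8 libraries (columns), coloured by log2 of summed normalized tags per 10000000, with grey where no peak was called. The ILC2 columns hold 15 and 13 called regions and are empty at Foxp3 and Izumo1r, while 6 rows are filled in all 8 columns. The share of all regions called in each library was not counted, so the column counts have no background.

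The site was compared within each cell type, with 1 library a side and so no test. In naive T cells, 3 of the 7 genes were at least 2-fold higher in the lavage after centring, beside 5.95% of all genes: Ctla4 by 3.19 on the log2(tags + 40) scale, Ikzf2 by 1.88 and Il2ra by 1.48. Foxp3 was 0.88 higher, Izumo1r 0.62 and Ikzf4 0.03, and Lrrc32 differed by -0.57. None of the 7 was 2-fold lower, beside 14.5% of all genes. In Th2 cells the 5 genes with a peak differed by -0.43 (Ikzf4) to -0.1 (Il2ra), and 0 of them were 2-fold apart, beside 10.7% of all genes. In ILC2s, Lrrc32 alone was 2-fold apart, with 46.9 tags against no peak, beside 6.99% of all genes, and the other 4 with a peak differed by -0.15 to 0.36. The 2 naive T libraries also differed in Th2 markers, as given above, and the part of such cells in the differences was not tested.

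**Figure D4:**
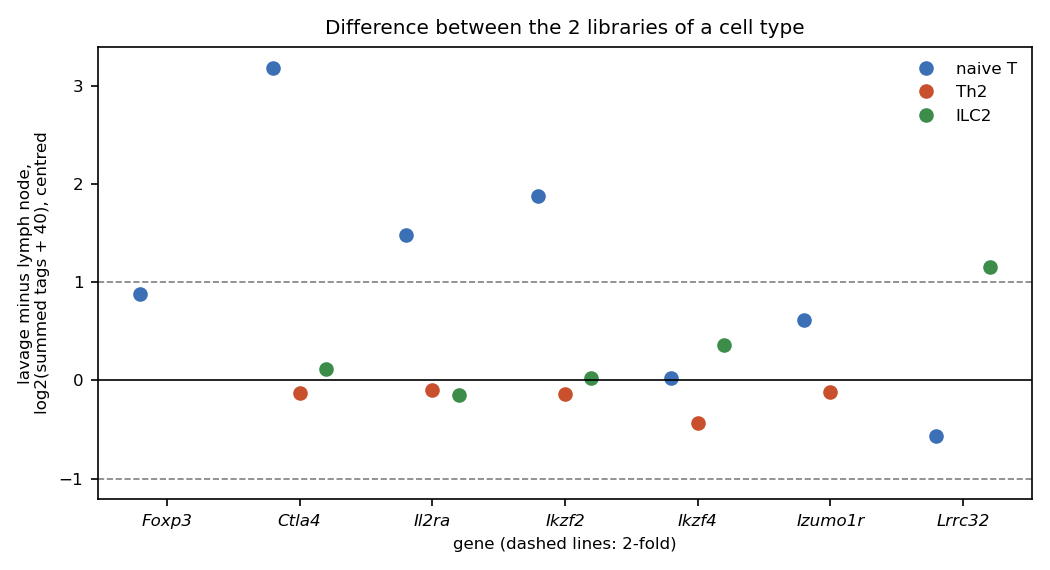
Lavage minus lymph node difference of each gene in log2(summed tags + 40), centred on the library median, for naive T cells, Th2 cells and ILC2s, with 1 point per pair of libraries and dashed lines at 2-fold. Ctla4, Ikzf2 and Il2ra of naive T cells lie between 1.48 and 3.19, and the points of Th2 cells lie between -0.43 and -0.1.

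Thymus and spleen CD4+ cells differed at 3 of the 7 genes by at least 2-fold, all lower in thymus, beside 9.22% of all genes lower and 7.06% higher. The log2 difference was -2.88 for Izumo1r (116.6 tags in thymus, 924.8 in spleen) and -2.0 for Ctla4 (163.9 and 642.4), and Foxp3 had no peak in thymus. Il2ra, Ikzf2, Ikzf4 and Lrrc32 differed by -0.41 to -0.2. In thymus 5 of 6 thymocyte markers had peaks, summing to 13676.3 tags against 635.4 in spleen, and the part of thymocytes in these differences was not tested. Lymph node naive T cells and spleen CD4+ cells differed at the 7 genes by -0.68 (Ikzf2) to 0.17 (Foxp3). None was 2-fold apart, beside 3.54% of all genes. The median absolute difference over all genes was smaller, at 0.09. Ikzf2 differed more than 93.8% of genes and Lrrc32 (-0.38) more than 90.8%. Foxp3, Ctla4, Il2ra and Ikzf4 differed more than 74.7% to 78.0% of genes, and Izumo1r (-0.08) more than 46.9%.

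Other genes of these pathways were taken from 4 lists. Of 11 genes of interleukin 2 receptor and STAT5 signalling, 1 was higher in ILC2s than in the naive T libraries and 0 lower. That stands beside 7.46% and 2.39% of all genes tested, and the median log2 difference was 0.06 against -0.01 over all genes. The higher gene was Il7r, the interleukin 7 receptor chain, at 2408.8 and 2658.8 tags in ILC2s against 931.6 and 1384.2 in the naive T libraries (log2 difference 1.25, SE 0.12, limma adjusted p = 0.0086). Of 10 tested genes of TGF-beta signalling, Smad3 was higher in ILC2s than in the naive T libraries (0.73, adjusted p = 0.047) and Smad2 higher in ILC2s than in Th2 cells (2.03, adjusted p = 0.039), both signal transducers of the receptor. The medians were 0.51 and 0.28 against -0.01 and 0.07 over all genes, of which 7.46% and 7.39% were higher in these comparisons.

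Of 23 factors that regulate Foxp3 or act with it, 2 were higher and 1 lower in ILC2s than in the naive T libraries. That stands beside 7.46% and 2.39% of all genes tested (median -0.13 against -0.01 over all genes). Against Th2 cells, 1 was higher and 1 lower, beside 7.39% and 1.72% (median -0.2 against 0.07). Tet2, an enzyme of DNA demethylation, had 1723.8 and 2009.7 tags in ILC2s against 417.9 and 381.1 in the naive T libraries (log2 difference 2.24, SE 0.23, limma adjusted p = 0.0099) and 476.8 and 521.4 in Th2 cells (1.38, adjusted p = 0.036). Gata3, the regulator of type 2 lymphocytes, was 0.99 higher in ILC2s than in the naive T libraries (adjusted p = 0.017), and Nfatc1, a factor of antigen receptor signalling, fell by 1.26 (adjusted p = 0.019) against naive T cells and by 1.42 (adjusted p = 0.016) against Th2 cells. All 4 libraries of T cells were above both ILC2 libraries at Nfatc1.

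Of 26 tested surface and effector genes, 2 were higher and 2 lower in ILC2s than in the naive T libraries (median 0.05 against -0.01). That stands beside 7.46% and 2.39% of all genes tested. Against Th2 cells, 1 was higher and 1 lower (median -0.49 against 0.07), beside 7.39% and 1.72%. The counts of the 4 lists were not tested against these shares. Swap70, which binds actin and membrane lipids, was 2.65 higher than in the naive T libraries (adjusted p = 0.0023) and 2.42 higher than in Th2 cells (adjusted p = 0.0032). Areg, a growth factor of tissue repair, was higher than in the naive T libraries (adjusted p = 0.011), with 329.9 and 320.6 tags against no peak and 56.1 tags. Cd28, the costimulatory receptor of T cells and neighbour of Ctla4, had 368.4 and 289.5 tags in ILC2s, 3463.0 and 3086.4 in the naive T libraries and 2999.6 and 3263.5 in Th2 cells (log2 differences -3.05 and -3.55, adjusted p = 0.0066 and 0.0057). Gzmb, a cytotoxic protease, was lower than in the naive T libraries (adjusted p = 0.046), with 386.2 and 626.5 tags there and a lone ILC2 peak of 39.3 tags in the lavage. Between Th2 and naive T cells limma called 0 of the 70 genes of the 4 lists, beside 0.645% of all genes higher and 1.48% lower. Of the 70, 11 had an unadjusted limma p under 0.05, beside 2253 of all 12241 genes tested. The calls in these lists were lost when single libraries were left out: without the lymph node ILC2 library 0 of all genes passed against naive T cells, and against Th2 cells 0 passed without either ILC2 library or without the lymph node Th2 library.

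The genes whose level over the 8 libraries was most like each of the 7 were found among 10242 genes by Pearson correlation of log2(tags + 40), given without a test. For Foxp3 these were Sntb2, Oas2 and Iigp1 (r = 0.994, 0.991 and 0.983), a likeness set mostly by which libraries had a peak. For Ctla4 they were Cd274, Gpr15 and Gm10634 (0.987, 0.977 and 0.965). For Il2ra they were Osbpl3, Ccr3 and Rap1a (0.994, 0.99 and 0.989), and for Ikzf2 Myo1f, Ociad1 and Nfil3 (0.942, 0.941 and 0.934). Izumo1r was most like Zc3h12d, Prkca and Nfatc1 (0.998, 0.988 and 0.984), Ikzf4 like Amdhd2, Adamts10 and Ccdc142 (0.979, 0.975 and 0.958) and Lrrc32 like Tmem160, F2rl3 and Tnfrsf1a (0.989, 0.986 and 0.985). The 8 points share libraries, depth and efficiency.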

How the data were processed

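H3K4me2 chromatin was sequenced in 8 libraries of sorted lymphocytes, with Nextera library construction per the labels' protocols. The authors used Bowtie, HOMER and mm10, per the submitters' processing notes, with no versions given. Peaks were called in each library separately with HOMER findPeaks in a mode that stitches neighbours into regions of variable length, with the thymus IgG library as background except for spleen, per the file headers. A peak's deposited signal is its tag count scaled by the authors to 10000000 tags, and the deposited fold is the ratio of tags to IgG computed by the authors' peak finder. Tag minimums were set per library and came to between 39.9 and 40.4 normalized tags, and the lowest peak held 34.5.

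Each peak went to the nearest of 21896 protein-coding genes (RefSeq, GRCm38.p6) within 100 kb, and 97.0% had one. Exons and introns were not told apart. Tags were summed per gene or merged region, with 40 added for genes, and centred by the median. limma 3.58.1 in R 4.3.3 gave two-sided tests with Benjamini-Hochberg adjustment over everything tested, at 0.05, and was tested on simulated data. Python 3.11.15 with pandas 2.3.3 did the rest. Samples were grouped by their titles. The named genes were all 7 members, genes of 4 fixed lists that passed (at most 3 per list and direction), and the 3 most correlated genes per member. Members and lists were chosen with earlier results of these data known. Alternatives changed the pseudocount, centring, filters, assignment, merging, block and libraries. The IgG libraries themselves were not analysed here, and 1 of the 8 marker lists is not reported here.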

Additional observations from a re-analysis of the deposited data

Results flagged for a closer look

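In 6 of the 7 genes the difference between lavage and lymph node had opposite signs in 2 cell types, with 1 library on each side. Foxp3 could not show this, since of the airway cell types naive T cells alone had its peaks. Over 12241 genes these differences were nearly uncorrelated between cell types (r = 0.04, -0.11 and 0.08). The share of all genes with opposite signs was not counted, so the count is no result about these genes. These differences of differences were not tested. At Ctla4 the lavage minus lymph node difference on the centred log2(tags + 40) scale was 3.17 in naive T cells and -0.12 in Th2 cells, 3.29 apart, and Th2 cells and ILC2s (0.13) were -0.25 apart. At Il2ra naive T cells (1.47) were 1.56 apart from Th2 cells (-0.09) and 1.61 apart from ILC2s (-0.14). At Ikzf2 naive T cells (1.86) were 2.00 apart from Th2 cells (-0.14), and Th2 cells were -0.17 apart from ILC2s (0.03). At Ikzf4 naive T cells (0.02) were 0.45 apart from Th2 cells (-0.42), which were -0.79 apart from ILC2s (0.36). At Izumo1r naive T cells (0.61) were 0.73 apart from Th2 cells (-0.12). At Lrrc32 naive T cells (-0.58) were -1.75 apart from ILC2s (1.17), whose value sets 1 peak of 46.9 tags against none. Those without naive T cells are under the 2-fold line, and those over it all involve the pair of naive T libraries, which also differ in Th2 markers.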

How the results depend on the processing

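Counts of genes called by limma moved with several choices, and the cause was not tested. The replicate block among them is a block on site, since the replicate number follows lavage or lymph node in each airway cell type. For ILC2s against Th2 cells (1116 genes), 1793 were called with every gene within 50 kb, 567 with a peak in all 6 libraries, 549 with the replicate block and 3420 with only the 2 cell types compared. For ILC2s against naive T cells (1206), 639 were called with a peak in all 6 libraries and 599 with only the 2 cell types. For Th2 cells against naive T cells (260), the count was 173 with a variance trend, 111 with every gene within 50 kb, 8 with a peak in all 6, 625 and 122 with 10 and 100 tags added, 62 with the replicate block and 108 with only the 2 cell types. By region, ILC2s against Th2 cells (394) gave 840 without centring, 204 with the replicate block and 4 per kb of peak. ILC2s against naive T cells (493) gave 73 per kb, and Th2 cells against naive T cells (16) gave 777 without centring, 0 with the block and 0 per kb. With peaks of at least 80 tags, 3 regions of the 7 genes differed in presence between ILC2s and Th2 cells in place of 6.

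Leaving out 1 library gave 0 to 3320 genes for ILC2s against Th2 cells, 0 to 2517 for ILC2s against naive T cells and 0 to 3246 for Th2 cells against naive T cells, and 0 to 1727, 0 to 1982 and 0 to 2755 regions. Regions of the 7 genes that differed in presence numbered 6 to 8, 6 to 13 and 4 to 9. The log2 differences then ranged from -2.58 to 0.60 for Ctla4 and from -0.21 to 1.66 for Ikzf2 in ILC2s against naive T cells, and from -0.45 to 1.42 for Ikzf2 in Th2 cells against naive T cells. By region they ranged from -2.30 to 0.75 for the Ctla4 domain (ILC2s against naive T cells), and for Th2 cells against naive T cells from -0.20 to 2.41 for the lower and from -0.70 to 0.84 for the upper Ikzf2 region. The calls at Izumo1r were lost without lymph node ILC2s (adjusted p = 0.053 against naive T cells, 0.069 against Th2 cells), and against Th2 cells also without lavage ILC2s or lymph node Th2 cells (both 0.061).

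Directions turned, with no call, without centring for Ikzf2 (-0.08) and Ikzf4 (-0.27) in Th2 cells against naive T cells and Il2ra in ILC2s against Th2 cells (0.29), and with the tallest peak for Ikzf2 (-0.10) and Il2ra (0.01) in the same comparisons. By region they turned per kb for the Ctla4 domain and the lower Ikzf2 region (both 0.37, ILC2s against naive T cells), for the upper Ikzf2 region without centring (-0.54) and with the tallest peak (-0.01, Th2 cells against naive T cells), and for Il2ra without centring (0.37, ILC2s against Th2 cells). Foxp3 in ILC2s against naive T cells was lost with every gene within 50 kb (-0.40, adjusted p = 0.13), and in Th2 cells it passed without centring (0.016) and with 10 tags added (0.015). The replicate number follows the site, and whether it also pairs animals is not given. The differences between the sites were nearly uncorrelated between cell types (r = 0.04, -0.11 and 0.08). With the replicate block the adjusted p was 0.016 and 0.024 for Izumo1r and 0.038 for Foxp3. Depth limits the lists at about 40 normalized tags.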

Other observations

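Further genes known from regulatory T cells, none past the test and chosen after their values were seen, showed the same split between the 2 naive T libraries as Ctla4. Il10, an anti-inflammatory cytokine, had 1650.1 tags in lavage naive T cells, 1784.0 and 2017.6 in Th2 cells and 545.6 and 473.8 in ILC2s, and no peak in lymph node naive T cells, spleen or thymus. Tigit, an inhibitory receptor, had 2784.4 and 646.4 tags in the naive T libraries, 2369.3 and 2345.3 in Th2 cells, 1451.1 and 1547.1 in ILC2s, 693.7 in spleen and 150.8 in thymus. Icos, a costimulatory receptor and the other neighbour of Ctla4, had 3889.8 and 1697.0 tags in the naive T libraries, 3280.8 and 2876.8 in Th2 cells, 2321.4 and 1946.5 in ILC2s, 1381.2 in spleen and 248.0 in thymus. The limma adjusted p for Th2 cells against naive T cells was 0.39 for Il10, 0.43 for Tigit and 0.47 for Icos. Tnfrsf18 (GITR) did not follow them: it had no peak assigned in lavage naive T cells, against 651.6 tags in lymph node naive T cells, 1039.8 and 1043.7 in Th2 cells, 692.3 and 435.8 in ILC2s, 920.2 in spleen and 310.5 in thymus.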
